A study of Mus musculus with 10 samples.

Results

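The m6A peaks of 3T3-L1 preadipocytes were compared with those of the same line taken through adipogenic differentiation. Both were labelled with dimethyl sulfoxide (DMSO), the solvent control, as their treatment. The DMSO Pre list held 2824 peaks and the DMSO Diff list 2944, 5768 of the 17036 peaks in the 5 lists of the series. A peak was called shared when a peak of the other list lay on the same chromosome and strand and their start-to-end spans overlapped by at least 1 base. All other peaks were called Pre-only or Diff-only. By this rule 1087 DMSO Pre peaks and 1070 DMSO Diff peaks were shared, 1737 peaks were Pre-only and 1874 were Diff-only.

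3T3-L1 is an established mouse embryonic fibroblast line that becomes fat-laden when post-confluent cells receive MDI, a mixture of isobutylmethylxanthine, dexamethasone (a glucocorticoid) and insulin, followed by medium with insulin. The labels call the Pre cells preadipocytes and the Diff cells mature adipocytes. They name DMSO as the treatment of both and give days 0 to 3 as the treated period, without saying whether this applied to the Pre cells. Each stage had 1 library of RNA immunoprecipitated with an m6A antibody (IP) and 1 input library, so no spread between replicate cultures is known, no test was made, and each interval below is a 95% Wilson interval that covers counting error only. The files gave no read counts, so depth is unknown, and each peak carried a single score, which behaves like a negative base-2 logarithm of its adjusted p and was used only to rank peaks within a list (rank 1 is the highest score).

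N6-methyladenosine (m6A) is the most common internal modification of messenger RNA. It is written by a complex built around Mettl3 and Mettl14, removed by Fto and Alkbh5, and read by proteins such as those of the YTH family, which affect the decay and translation of the marked RNA. It falls mostly within the DRACH motif, of which GGAC is the commonest core, in long exons and near stop codons. A peak marks a stretch of a transcript enriched in the IP over the input, so a gene without a peak at one stage may have been unmethylated or may have had too few reads there. These possibilities cannot be told apart in these files.

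The sequences that carry the comparison are shown first, as the transcript strand around the GGAC nearest to the middle of a peak, with that GGAC in capitals. A stretch may run past the edge of its peak. Positions are on mouse mm10 (GRCm38). The first 3 lie in peaks shared by both stages: Mdm2 (last coding exon, 12 of 12, chr10:117690289-117690348, minus strand), which encodes the ubiquitin ligase of p53, Adamts1 (coding exon 9 of 9, chr16:85795618-85795677, minus strand), a secreted metalloprotease, and Hspa5 (3′ UTR, exon 9 of 9, chr2:34776139-34776168, plus strand), the endoplasmic reticulum chaperone BiP.
Mdm2: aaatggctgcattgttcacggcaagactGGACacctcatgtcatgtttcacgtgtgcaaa
Adamts1: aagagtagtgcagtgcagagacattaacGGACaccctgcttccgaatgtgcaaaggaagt
Hspa5: tattgtaaatactGGACtcaggaactttcg

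The next 3 lie in Pre-only peaks of genes with no peak in the DMSO Diff list. They are Rnf213 (coding exon 28 of 67, chr11:119441179-119441238, plus strand), a giant interferon-induced ubiquitin ligase, Samd9l (coding exon 2 of 2, chr6:3374526-3374585, minus strand), an interferon-induced antiviral factor, and Thbs1 (coding exon 10 of 22, chr2:118118652-118118711, plus strand), a matrix glycoprotein.
Rnf213: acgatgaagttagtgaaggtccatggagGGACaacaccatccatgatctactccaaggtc
Samd9l: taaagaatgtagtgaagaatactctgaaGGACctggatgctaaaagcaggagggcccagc
Thbs1: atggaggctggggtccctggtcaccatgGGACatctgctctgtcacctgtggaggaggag

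The last 5 lie in Diff-only peaks of genes with no peak in the DMSO Pre list. They are C3 (coding exon 18 of 41, chr17:57220099-57220158, minus strand), a complement component secreted by fat cells, Pdia4 (coding exon 4 of 10, chr6:47806574-47806633, minus strand), a protein disulfide isomerase, Irs2 (coding exon 1 of 2, chr8:11007793-11007852, minus strand), an adaptor of the insulin receptor, Errfi1 (3′ UTR, exon 4 of 4, chr4:150867592-150867621, plus strand), an inhibitor of the EGF receptor, and Tsc22d3 (3′ UTR, exon 3 of 3, chrX:140540482-140540511, minus strand), the glucocorticoid-induced leucine zipper.
C3: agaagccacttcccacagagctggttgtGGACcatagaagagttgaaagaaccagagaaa
Pdia4: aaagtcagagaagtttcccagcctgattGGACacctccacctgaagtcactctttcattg
Irs2: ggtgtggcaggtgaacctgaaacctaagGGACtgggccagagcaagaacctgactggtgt
Errfi1: aaatgaagttggtGGACtccgccttaatga
Tsc22d3: ttttcatttccatGGACatcttccacagct

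The stage labels could be checked only through the peaks. Of 12 fixed markers of adipocytes, among them Adipoq, Fabp4, Plin1 and Pparg, 0 carried a peak at either stage. Of 12 markers of preadipocytes or fibroblasts, 7 carried a peak in DMSO Pre and 6 in DMSO Diff. Pdgfrb, Col1a1, Col1a2 and Twist1 had peaks in DMSO Pre only (2, 2, 4 and 1), whereas Thy1, Fn1 and Ly6a had peaks in DMSO Diff only (5, 2 and 1). The peaks therefore did not show whether the Diff cells expressed adipocyte genes.

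The shared peaks made up 38.5% of the DMSO Pre list (95% interval 36.7 to 40.3) and 36.3% of the DMSO Diff list (34.6 to 38.1). The Pre-only share was 61.5% and the Diff-only share 63.7%. The shared peaks formed 1134 overlapping pairs, of which 253 had the same start and end, and the median pair had 100% of the shorter peak's exonic bases in common. For 8 shared DMSO Pre peaks no exonic base in common with a DMSO Diff peak was found. Asking for an overlap of 50% of both spans left 718 shared peaks in each list.

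Peaks with higher scores were shared more often. Each list was ordered by score and divided into 5 equal bins. In the top bin of the DMSO Pre list 51.2% of the peaks were shared (47.1 to 55.3), and in the lowest bin 26.0% (22.6 to 29.8). The DMSO Diff list gave 51.2% (47.2 to 55.2) and 28.2% (24.7 to 31.9). The intervals of the top and lowest bins did not overlap in either list. Among the 100 highest peaks, 57 of DMSO Pre and 58 of DMSO Diff were shared.

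**Figure D1:**
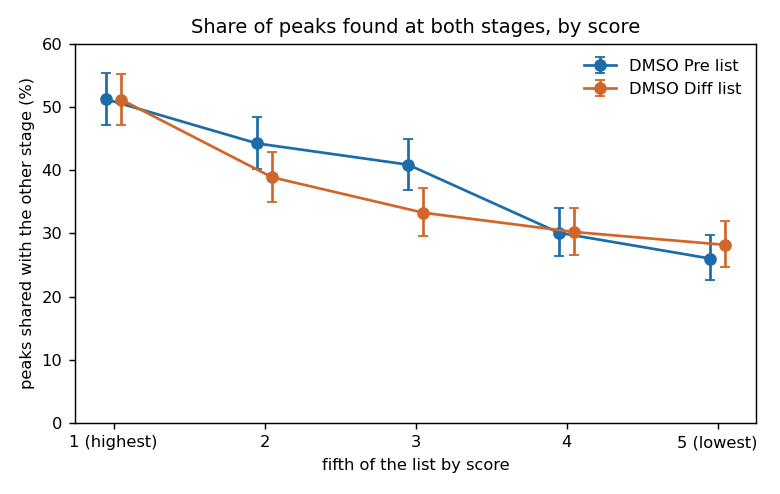
Percentage of peaks shared with the other stage (y axis) in 5 equal bins of the DMSO Pre and DMSO Diff lists ordered by score (x axis), with bars for 95% Wilson intervals of counting error. Both lists go from 51.2% in the top bin to 26.0% and 28.2% in the lowest.

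Shared and stage-restricted peaks also differed in length and position. The median peak covered 175 exonic bases in the shared peaks of either list and 100 in the Pre-only and Diff-only peaks. Any overlap of spans made a peak shared, so the rule itself favours longer peaks in the shared classes. How much of the difference in length comes from the rule was not tested. Of the peaks on coding transcripts, 49.8% of the shared DMSO Pre peaks and 56.8% (54.3 to 59.3) of the Pre-only peaks had their midpoint in the coding sequence (CDS), and the 3′ UTR held 44.8% and 37.7%. The DMSO Diff side showed the same split, with 50.3% and 56.4% in the CDS and 44.3% and 37.3% in the 3′ UTR. The size of the split depended on the placement. By the regions listed by the authors, the CDS held 46.6% of the shared DMSO Pre and 50.1% of the Pre-only peaks. On the DMSO Diff side these shares were 46.9% and 48.6%. A midpoint no further than 200 bases from the last coding base was found for 26.0% of the shared DMSO Pre peaks against 18.5% of the Pre-only peaks, and for 27.0% of the shared DMSO Diff peaks against 21.5% of the Diff-only peaks.

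GGAC on the transcript strand was found in 61.5% (58.5 to 64.4) of the shared DMSO Pre peaks, 48.1% (45.7 to 50.4) of the Pre-only peaks, 60.5% (57.5 to 63.4) of the shared DMSO Diff peaks and 41.2% (38.9 to 43.4) of the Diff-only peaks. Since longer peaks hold any motif more often, the search was repeated in a window of 100 bases around each midpoint. It gave 55.1%, 48.2%, 53.1% and 41.2% in the same order, beside 32.7% of all windows of that length tiled along the transcripts that carried a peak. Over peaks of all lengths the Diff-only class had the lowest share. Among peaks of over 150 exonic bases the window held GGAC in 65.9% (61.9 to 69.6) of the shared DMSO Diff peaks and in 49.6% (45.2 to 54.0) of the Diff-only peaks, whereas the shared DMSO Pre and the Pre-only peaks of that length gave 67.2% (63.3 to 70.9) and 62.3% (58.1 to 66.4), with overlapping intervals. Among peaks of 76 to 150 bases the order was the opposite, with 36.8% (31.4 to 42.6) of the shared DMSO Pre against 46.5% (41.9 to 51.2) of the Pre-only peaks, and 35% (29.5 to 41.0) of the shared DMSO Diff against 39.2% (35.1 to 43.5) of the Diff-only peaks, all with overlapping intervals within a list. Among peaks of up to 75 bases the 4 classes lay between 37.4% and 44.7%. Shared peaks therefore did not hold GGAC more often at every length. Small nuclear RNA genes held 9.16% of the shared DMSO Pre peaks placed on a transcript and 0.884% of the Pre-only ones. On the DMSO Diff side these were 9.31% and 3.50%. The length bins were not counted without such genes, so their part in this order was not tested.

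**Figure D2:**
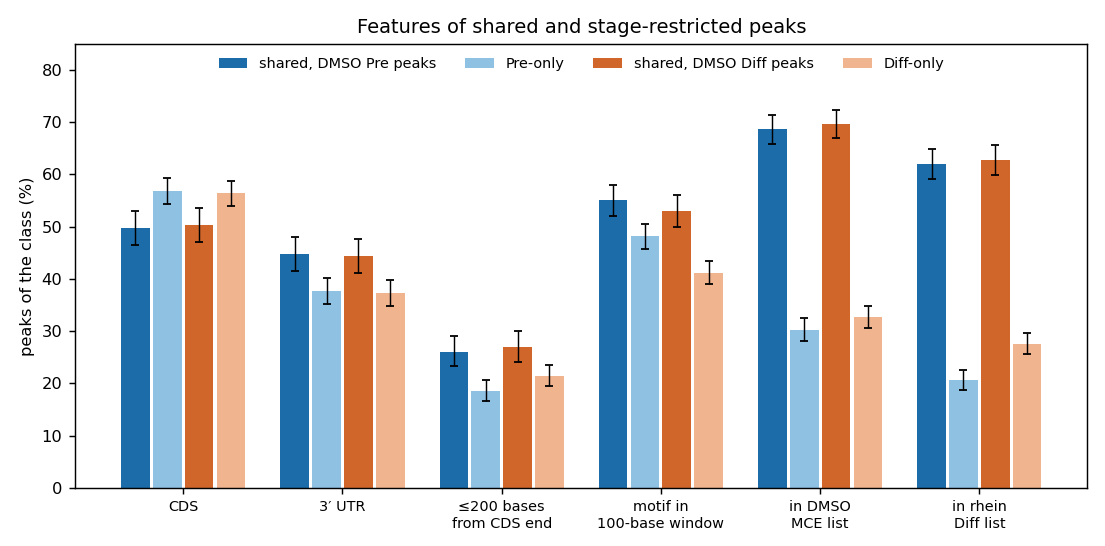
Percentage of peaks (y axis) with each feature (x axis) among shared and stage-restricted peaks of both lists, with 95% Wilson intervals of counting error as bars; the motif is GGAC. The Diff-only peaks held the motif in 41.2% of windows, the lowest of the 4 classes, and Pre-only peaks recurred least in the rhein Diff list, at 20.6%.

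The stage-restricted peaks were looked up in further lists of the series. The DMSO MCE list (5128 peaks) comes from cells at mitotic clonal expansion, the divisions between the Pre and Diff stages. It held 30.3% (28.2 to 32.5) of the Pre-only peaks and 32.7% (30.6 to 34.8) of the Diff-only peaks, against 68.7% and 69.7% of the shared peaks of the 2 lists. The rhein Diff list (3071 peaks), from cells labelled as differentiated with 20 µM rhein, a plant anthraquinone, held 20.6% (18.7 to 22.5) of the Pre-only and 27.6% (25.6 to 29.7) of the Diff-only peaks, against 62.0% and 62.8% of the shared ones. The rhein Diff list shared 3067 identical spans with the rhein MCE list, so the stage it stands for is uncertain. Of the Pre-only peaks 37.2% and of the Diff-only peaks 43.0% were found in at least one of the DMSO MCE and rhein Diff lists. The shared peaks were longer and had higher scores than the stage-restricted ones, and these shares were not adjusted for either.

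Placing the peaks on annotated exons gave 1729 genes with a DMSO Pre peak and 1714 with a DMSO Diff peak, 2506 in all. Of these, 792 genes (31.6%) carried a peak in DMSO Pre only, 777 (31.0%) in DMSO Diff only, 794 (31.7%) at both stages with at least 1 shared peak, and 143 (5.71%) at both stages with none shared. Among all 21951 protein-coding genes of the annotation, 6.82% carried a DMSO Pre peak and 6.60% a DMSO Diff peak. Most stage-restricted peaks lay in genes with no peak at the other stage: 62.7% of the Pre-only peaks and 57.5% of the Diff-only peaks. A further 23.4% of the Pre-only and 27.6% of the Diff-only peaks lay in a gene that also held a shared peak.

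The highest peaks of each class give a first view of the genes concerned. The pair with the highest ranks at both stages lay in the coding end of Mdm2, with a score of 335 (rank 2) in DMSO Pre and 183 (rank 4) in DMSO Diff. Hspa5 followed with 129 (rank 5) and 138 (rank 9). Then came the small nuclear RNA genes Gm24144 and Gm23412, a pair each, Adamts1 with a CDS pair (ranks 24 and 16) and a 3′ UTR pair (ranks 9 and 31), and Tnks1bp1, which encodes a tankyrase-binding protein (ranks 29 and 40). The remaining pairs lay in Gas1, a growth-arrest gene in which 2 DMSO Pre peaks (ranks 21 and 25) met 1 DMSO Diff peak (rank 43), and in Jun, the AP-1 transcription factor (ranks 44 and 30). Small nuclear RNA genes have many near-identical copies, so their reads can be split among copies.

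The 10 highest Pre-only peaks had a different make-up. A 75-base peak on Gm26827, an antisense transcript, had the highest score of the whole list, 735. Pdgfra, the platelet-derived growth factor receptor that marks fibroblastic progenitors, followed with a 75-base CDS peak at chr5:75181528-75181602 (score 144, rank 3). The others lay in the 3′ UTRs of Cnn3, an actin-binding calponin (rank 4), Dclk1, a microtubule-associated kinase (rank 6), Col1a2, a chain of type I collagen (rank 10), and Mdm2 (rank 15), in Mmp2, a gelatinase (rank 8), in the CDS of Srrm2, a splicing factor (rank 19), and of Rnf213 (rank 20), and in the noncoding RNA 8030451A03Rik (rank 22). Of these 10 peaks 9 covered at most 75 exonic bases and 2 held GGAC, whereas on the DMSO Pre side of the 10 shared pairs 0 were that short and 6 held GGAC. The overlap rule favours longer peaks among the shared pairs here as well. The Dclk1 peak alone was also found in the DMSO MCE list. Pdgfra, Mmp2, Mdm2 and Srrm2 each held a shared peak as well, and Pdgfra held 5 DMSO Pre and 3 DMSO Diff peaks in all.

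Among the 10 highest Diff-only peaks, a 75-base peak on the antisense transcript 4930488L21Rik had the highest score of its list, 675, and was found in neither further list. A pair of peaks on Pde10a, a cyclic nucleotide phosphodiesterase (ranks 14 and 15), was found in both further lists. The others lay in Uso1, a vesicle-tethering protein (rank 19), Psma2, a proteasome subunit (rank 26), the small nuclear RNA gene Gm22645 (rank 28), Errfi1 (rank 33), Nedd4, a ubiquitin ligase (rank 34), Purb, a single-strand nucleic acid binding protein (rank 38), and Adamts1 (rank 41). The Errfi1 peak spanned 1050 bases, with its midpoint 111 bases past the end of the CDS, so that it also reached into the CDS. It was found in both further lists. Of these 10 peaks 6 covered at most 75 exonic bases and 2 held GGAC.

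The genes were then read by function, in 16 lists by known role and 3 families by symbol, and in 5 lists written after the genes of both sides had been read. The latter describe what was seen and are no evidence for it. The other lists and families were also chosen with earlier results of these data known. Each list is given by the members with a peak at either stage, to be read against 31.6% Pre only and 31.0% Diff only among all genes with a peak.

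**Figure D3:**
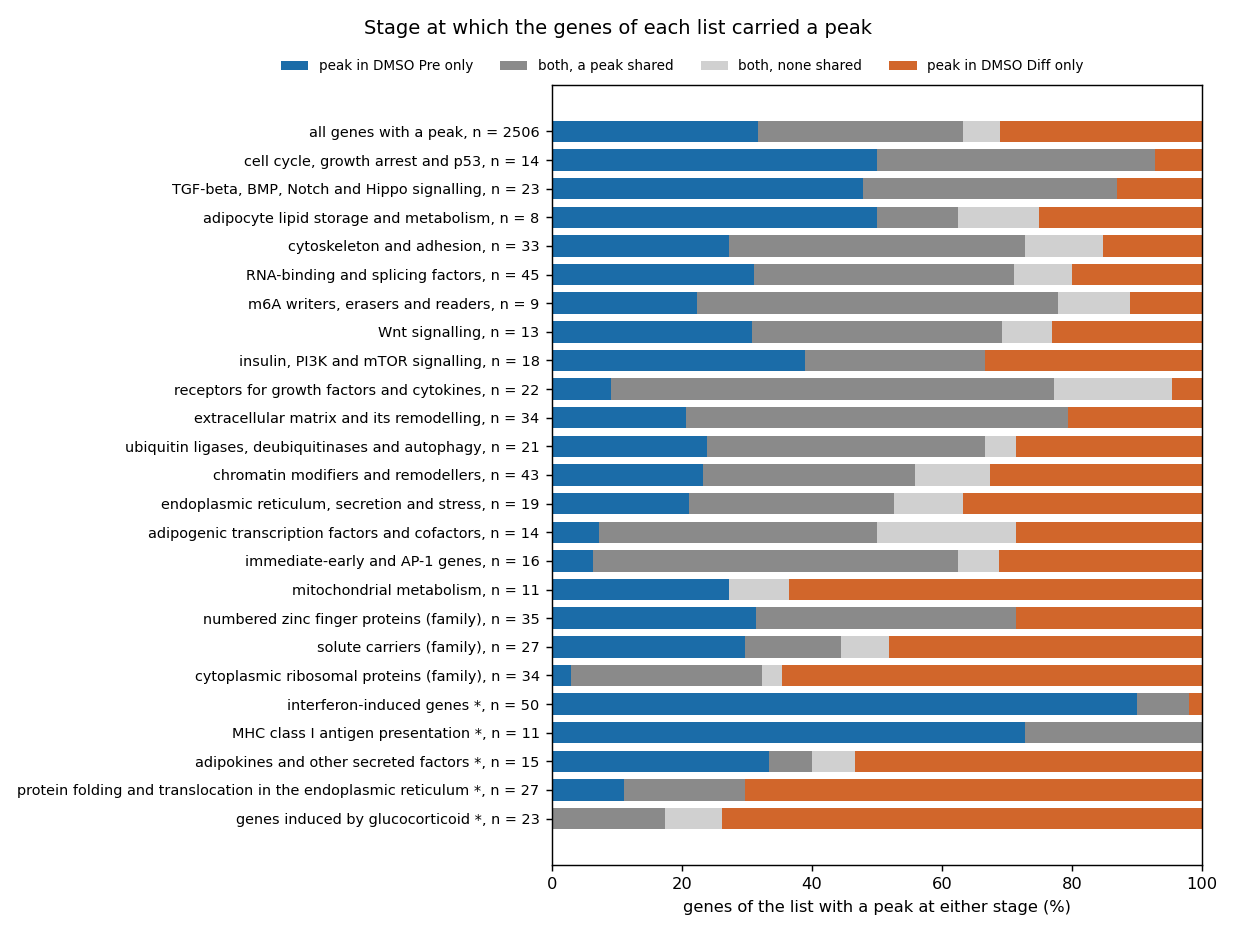
Genes of each list by the stage at which they carried a peak, as a percentage of the members with a peak at either stage (x axis, n in each row label); the top bar holds all 2506 genes, and lists marked with an asterisk were written after the genes were read. Interferon-induced genes were Pre only in 90% of cases and cytoplasmic ribosomal protein genes Diff only in 64.7%.

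Genes induced by interferon, the antiviral cytokine, lay almost wholly on the preadipocyte side. Of 75 listed members 50 carried a peak: 45 (90%) in DMSO Pre only, 1 in DMSO Diff only and 4 at both stages with a shared peak. Together they held 139 DMSO Pre peaks, 4.92% of that list, against 6 DMSO Diff peaks. Of the 139, 135 (97.1%) were Pre-only, against 61.5% of the whole DMSO Pre list, and they made up 7.77% of all Pre-only peaks. Of the 139 peaks 102 had their midpoint in the CDS and 33 in the 3′ UTR. The list was written after the genes had been read, and the best of its peaks had rank 20.

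Rnf213 alone held 33 DMSO Pre peaks, with scores of 4.37 to 65.1, and 0 DMSO Diff peaks. Of these peaks 30 lay in the CDS and 3 in the 3′ UTR, covering 6375 exonic bases, and 17 held GGAC. Rnf213 had more peaks than any other gene in either list, and 106 DMSO Pre peaks of the interferon list lay outside it. Samd9l held 8 DMSO Pre peaks, all in the CDS, with scores of 9.24 to 25.6, and 0 in DMSO Diff.

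The remaining Pre-only members cover the main arms of the response. The Ifit genes, whose proteins bind foreign RNA, held 4 DMSO Pre peaks (Ifit1), 4 (Ifit2), 3 (Ifit3) and 1 (Ifit3b), with a best rank of 28 for a CDS peak of Ifit3 (score 59.1). Isg15, a ubiquitin-like modifier, held 2, one of them at its 5′ UTR with a score of 55.8 (rank 33). Sensors and effectors of viral RNA were Eif2ak2, the kinase PKR (3 peaks), Adar, an RNA-editing deaminase (2), Oasl2 (4), Ddx58, the sensor RIG-I (1), and Mx1 (1). All of these had 0 DMSO Diff peaks.

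The immunity-related and guanylate-binding GTPases followed the same pattern, with 4 DMSO Pre peaks on Irgm1, 3 on Irgm2, 2 on Igtp, 1 on Iigp1, 3 on Gbp7 and 1 on Gbp3 (rank 47), and 0 DMSO Diff peaks on each. So did the poly(ADP-ribose) polymerase genes Parp9 (1), Parp10 (2), Parp12 (1) and Parp14 (4), and Helz2, a helicase (6). Of the transcription factors of the pathway, Irf9 held 1 DMSO Pre peak and 0 in DMSO Diff, and Stat2 held 4 in DMSO Pre and 1, shared, in DMSO Diff. Ifi204, Ifitm3 and Trim25 also kept a shared peak, and Slfn5 was the single Diff-only member (1 peak, rank 1460).

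The receptors that start the response did not share this pattern. Ifnar1, a chain of the type I interferon receptor, held 3 DMSO Pre and 2 DMSO Diff peaks and kept a shared peak, as did Ifngr1, a chain of the type II receptor, with 1 peak at each stage. In the DMSO MCE list 14 interferon-induced members carried a peak (19 peaks in all), and in the rhein Diff list 5 did (6 peaks). With 1 library pair per stage, whether the difference belongs to the stage or to this culture cannot be told apart. Under the symbols listed by the authors the excess of Pre-only over Diff-only members was 39, against 44 on the exonic placement.

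Genes of MHC class I antigen presentation, another list written afterwards, had 11 members with a peak, of which 8 were Pre only, 0 Diff only and 3 at both stages. H2-D1, a class I heavy chain, held 7 DMSO Pre peaks and 1 DMSO Diff peak. B2m, the class I light chain, held 1 and 0, the peptide transporter genes Tap1 and Tap2 held 1 and 2 in DMSO Pre, and Nlrc5, the class I transactivator, held 2, with 0 in DMSO Diff for all 3. H2-K1 kept 2 peaks at each stage. Class I heavy chain genes are close copies of each other, so reads may be split among them.

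Matrix genes held many peaks at both stages. Of 56 members of the extracellular matrix list 34 carried a peak, 7 in DMSO Pre only, 7 in DMSO Diff only and 20 at both stages, all 20 with a shared peak, and they held 112 DMSO Pre and 126 DMSO Diff peaks. The type I collagen genes Col1a1 (2 peaks) and Col1a2 (4) were Pre only, with a highest score of 86.4 for Col1a2. Other fibrillar collagen genes of the list kept a shared peak, with 1 DMSO Pre and 1 DMSO Diff peak on Col3a1, 2 and 5 on Col5a1, and 2 and 1 on Col5a2. Thbs1 held 11 DMSO Pre peaks, with scores of 4.21 to 29.9, and 0 DMSO Diff peaks, and its relative Thbs2 held 9 and 2. Adamts5, an aggrecan-cleaving protease, held 7 and 1.

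Further matrix genes held more peaks in DMSO Diff. They were picked after their values had been seen, and Col4a1 and Lamc1 differed by 1 peak only. Col4a2, a chain of type IV collagen, held 0 DMSO Pre and 6 DMSO Diff peaks, and Col4a1 held 2 and 3. Nid1, nidogen, which links laminin to collagen IV, held 4 and 16, with a best score of 8.57 in DMSO Pre and 54.2 in DMSO Diff. Of the laminin chains, Lamb1 held 2 and 5, Lamc1 held 4 and 5, and Lama4 held 0 and 2. Vcan, the proteoglycan versican, held 8 peaks in DMSO Pre, all shared, and 19 in DMSO Diff. Of these 19, 13 were Diff-only, near the 63.7% of the whole DMSO Diff list. The best score of Vcan was 32.7 in DMSO Pre and 338 (rank 2) in DMSO Diff. Col6a1, a chain of collagen VI, held 3 and 5, with its best rank at 45 in DMSO Pre and 5 in DMSO Diff. Of the other listed chains of collagen VI, Col6a2 held 5 and 11, whereas Col6a3 held more in DMSO Pre, 10 and 5.

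Some further genes are given for a large difference in their number of peaks, for which they were picked. Beside Rnf213, Thbs1, Samd9l, Thbs2 and Adamts5, large DMSO Pre excesses were seen on Pcdh19, a protocadherin (8 and 1), Zfhx3, a homeobox transcription factor (7 and 0), and Angptl2, a secreted angiopoietin-like factor (6 and 0). Beside Nid1 and Vcan, on the DMSO Diff side Sned1, a matrix protein, held 8 and 22 peaks and Prune2 held 2 and 16. Xdh, xanthine dehydrogenase, held 2 and 11, C3 held 0 and 10, and Vldlr, a receptor for triglyceride-rich lipoproteins, held 0 and 9. None of Xdh, C3 and Vldlr had a peak in the DMSO MCE or rhein Diff list. In contrast, Plec, the cytolinker plectin, held many peaks at both stages (15 and 21).

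**Figure D4:**
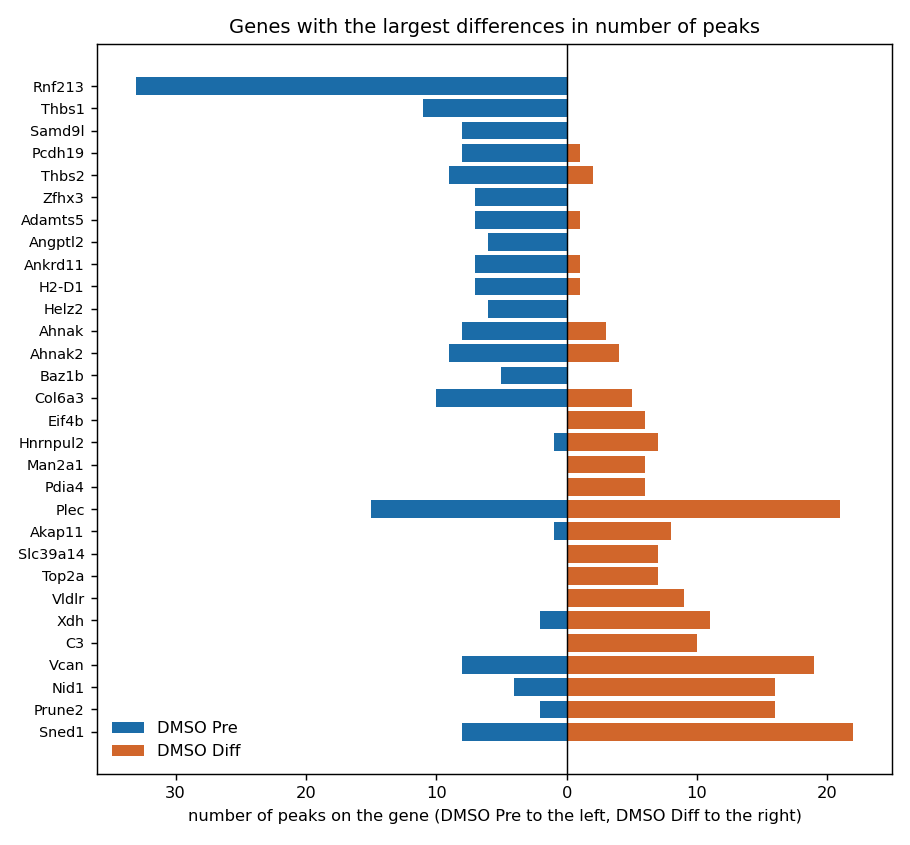
Number of peaks on a gene in the DMSO Pre list (to the left of 0) and the DMSO Diff list (to the right) for the genes with the largest difference in either direction. Rnf213 had 33 against 0, and Sned1 8 against 22.

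Of the 937 genes with a peak at both stages, 528 had the same number of peaks in both lists, 193 had more in DMSO Pre and 216 had more in DMSO Diff. Most genes with a peak had 1 only: 1198 in DMSO Pre and 1169 in DMSO Diff. Genes with 5 or more numbered 59 and 70.

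The genes of cytoplasmic ribosomal proteins, a family with members taken by symbol, lay on the Diff side. Of 80 such genes 34 carried a peak: 22 (64.7%) in DMSO Diff only, 1 (Rps25) in DMSO Pre only, 10 at both stages with a shared peak and 1 at both with none shared. They held 16 DMSO Pre and 49 DMSO Diff peaks, and 39 of the 49 (79.6%) were Diff-only, against 63.7% of the whole DMSO Diff list. Rpl22 had the best Diff-only rank (98), followed by Rpl13a (205) and Rps28 (400). Rpl13 (ranks 358 and 146) and Rps24 (81 and 331) were among those at both stages. Members of the family with a peak numbered 19 in the DMSO MCE list and 20 in rhein Diff. Ribosomal protein genes have many processed copies, so the reads behind these peaks are uncertain. The Pre-only count minus the Diff-only count was -21, and -13 by the symbols listed by the authors.

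The endoplasmic reticulum is where secreted and membrane proteins fold. In the list for this organelle, its secretion and stress, 19 of 44 members carried a peak: 4 in DMSO Pre only, 7 (36.8%) in DMSO Diff only and 8 at both stages, with a Diff-only share near that of all genes. The Diff-only members were Pdia4 (6 peaks), Hsp90b1 (3), P4hb (3) and Pdia6 (2), which fold or oxidise proteins, Canx, the lectin chaperone calnexin (1, rank 158), Sec61a1, the translocation channel (1), and Nupr1, a stress regulator (1). A wider list of folding and translocation genes, written after the genes were read, had 27 members with a peak, 19 in DMSO Diff only, 3 in DMSO Pre only and 5 at both. It added Calu, calumenin (2 peaks, rank 201), Stt3a and Rpn1, subunits of the oligosaccharyltransferase (1 and 2), and Uggt1, the glycoprotein folding sensor (1). Hspa5 kept its peak at both stages, and Calr, calreticulin, was Pre only (1 peak, rank 720). The Pre-only count minus the Diff-only count of the wider list was -16, and -10 by the authors' symbols.

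Genes known to be induced by glucocorticoid, a list written after the genes were read, had 23 members with a peak, of which 17 were Diff only, 0 were Pre only and 6 were at both stages. They held 10 DMSO Pre and 56 DMSO Diff peaks. Tsc22d3 held 2 DMSO Diff peaks with scores of 10.6 and 27.6 (best rank 137). Ddit4, an inhibitor of mTOR signalling, held 4 (best rank 245), Foxo3, a forkhead factor, 4 (best rank 528), Glul, glutamine synthetase, 5, and Errfi1 3. Fkbp5, a chaperone of the glucocorticoid receptor, held 1 DMSO Pre peak with a score of 6.56 and 4 DMSO Diff peaks with scores of 9.73 to 45.9. The receptor itself, Nr3c1, carried peaks at both stages, 1 and 2, with none shared.

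Transcription factors of adipogenesis were divided between shared and stage-restricted peaks. Of 42 listed, 14 carried a peak: 1 in DMSO Pre only, 4 in DMSO Diff only, 6 at both stages with a shared peak and 3 at both with none shared. Of their peaks, 6 of 16 in DMSO Pre (37.5%) and 13 of 22 in DMSO Diff (59.1%) were not shared. Over all peaks these shares were 61.5% and 63.7%, so the DMSO Diff share was near that of the whole list. Cebpb, an early activator of the programme, had a CDS peak with a score of 32.9 (rank 71) in DMSO Pre and 65.0 (rank 35) in DMSO Diff, and a 3′ UTR peak with 5.38 and 12.8. Klf9 held 4 peaks at each stage, and Nr2f2, the orphan receptor COUP-TFII, held 2 and 3. The Diff-only members were Klf5 (score 20.5, rank 219), Zbtb16 (2 peaks, best rank 1531), Foxo1 (1, rank 2752) and the corepressor gene Tle3 (1, rank 2421). Neither Foxo1 nor Tle3 had a peak in the DMSO MCE or rhein Diff list.

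In the list of adipocyte lipid storage and metabolism 8 of 49 genes carried a peak, 4 in DMSO Pre only, 2 in DMSO Diff only and 2 at both. Fasn, fatty acid synthase, Plin2, a lipid droplet coat protein, Cpt1a, the mitochondrial importer of fatty acids, and Sqle, of sterol synthesis, each held 1 DMSO Pre peak and 0 DMSO Diff peaks. Acsl4, an acyl-CoA synthetase, held 1 in DMSO Diff only. Plin4, another droplet coat protein, held 2 at each stage. Among the peaks above the median score of each list the excess changed side, to 2 more Diff-only than Pre-only members.

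Genes of insulin, PI3K and mTOR signalling lay on both sides, with 7 of 18 (38.9%) in DMSO Pre only, 6 (33.3%) in DMSO Diff only and 5 at both. These shares were near the 31.6% and 31.0% of all genes with a peak. The 2 insulin receptor substrates lay on opposite sides: Irs1 held 3 DMSO Pre peaks with scores of 4.47 to 9.56 and 0 DMSO Diff peaks, and Irs2 held 0 and 1 (score 10.3). In the DMSO MCE list Irs1 had 0 peaks and Irs2 had 12. Mtor, its partner Rptor and the S6 kinase gene Rps6kb1 were Pre only (1, 1 and 3 peaks). Inhibitors lay on both sides, with the sestrin genes Sesn2 and Sesn3 in DMSO Pre only (1 each) and Ddit4, Eif4ebp1 and Sesn1 in DMSO Diff only (4, 2 and 1). Gsk3b was Pre only (2), and the forkhead factors Foxo1 and Foxo3 were Diff only (1 and 4). The single peaks of Rptor (rank 2759) and Foxo1 (rank 2752) lay near the end of their lists.

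Cell cycle genes lay mostly on the Pre side or at both stages. Of 59 listed 14 carried a peak: 7 in DMSO Pre only, 1 in DMSO Diff only and 6 at both, all with a shared peak. The Pre-only members were the cyclin genes Ccnd2 and Ccng1 (1 and 2 peaks), the kinase genes Cdk1, Cdk4 and Plk2 (1, 2 and 2), the inhibitor Cdkn2c (1) and Btg1, an antiproliferative factor (2). Top2a, topoisomerase II of dividing cells, was the Diff-only member, with 7 peaks, all in the CDS, and it held 10 peaks in DMSO MCE. Of 16 immediate-early genes with a peak, 1 was in DMSO Pre only (Egr1) and 5 (31.2%, close to the background) in DMSO Diff only, among them Myc (2 peaks), Socs3, an inhibitor of cytokine signalling (2, rank 236), and Nr4a1 (1), and 10 at both. Rhob, a small GTPase, had its best peak at rank 1291 in DMSO Pre and at rank 6 (score 148) in DMSO Diff.

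The receptors for growth factors and cytokines were the list most often marked at both stages, with 19 of 22 (86.4%), 15 of them with a shared peak. Met, the hepatocyte growth factor receptor, held 9 peaks at each stage, and Il6st, the signal transducer gp130, held 5 and 6. Pdgfrb (2 and 0) and Ryk (1 and 0) were Pre only, and Tgfbr2 (0 and 3) was Diff only. Of the TGF-beta, BMP, Notch and Hippo list 23 genes carried a peak, 11 in DMSO Pre only, among them Grem1, a BMP antagonist (3 peaks), and Amotl2 (3), 3 in DMSO Diff only and 9 at both. Among the peaks above the median score of each list this lean was reversed, with 1 more Diff-only than Pre-only gene.

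The other lists are given by their counts. Peaks of the m6A machinery were at both stages for 6 of 9 genes, including the readers Ythdf1, Ythdf2 and Ythdf3. RNA-binding and splicing factors gave 14 Pre only, 9 Diff only and 22 at both of 45, chromatin modifiers 10, 14 and 19 of 43, cytoskeleton and adhesion 9, 5 and 19 of 33, Wnt signalling 4, 3 and 6 of 13, ubiquitin and autophagy 5, 6 and 10 of 21, and numbered zinc finger proteins 11, 10 and 14 of 35. Solute carriers gave 8, 13 and 6 of 27, with the metal transporter Slc39a14 at 0 and 7 peaks. Mitochondrial metabolism gave 3, 7 and 1 of 11, with Idh2, a source of mitochondrial NADPH, at 0 and 5 peaks. The list of adipokines and other secreted factors, written afterwards, gave 5, 8 and 2 of 15, with the chemokine Cxcl12 at 5 and 0 peaks, Angpt1 and Agt, angiotensinogen, at 0 and 3 each, and Vegfa at 1 and 6.

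Small nuclear RNA genes, components of the spliceosome, were seldom Pre only. They were 15 of the Pre-only genes (1.89%), 63 of the Diff-only genes (8.11%) and 97 of the genes at both stages (10.4%). Antisense transcripts were 43 Pre-only genes (5.43%), 37 Diff-only genes (4.76%) and 15 genes at both stages (1.60%).

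A last group held peaks at both stages but in different places. These were 143 genes, and in 66 of them each list held 1 peak. With a gap of up to 100 bases counted as the same place, 111 genes were left. Distances were taken between the best-ranked peaks of each stage, which need not be the nearest. Both lay on 1 annotated transcript in 133 genes. Their midpoints were a median of 874 bases apart, within 200 bases in 17 genes and over 1000 bases apart in 57. The DMSO Diff peak lay nearer the 5′ end in 77 and nearer the 3′ end in 56. Of 124 genes with both on a coding transcript, 69 had both peaks in the same region, of which 46 were in the CDS and 22 in the 3′ UTR. The most frequent change was from a 3′ UTR peak in DMSO Pre to a CDS peak in DMSO Diff, in 24 genes, against 14 with a CDS peak in DMSO Pre and a 3′ UTR peak in DMSO Diff.

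Cebpd, the partner of Cebpb in early adipogenesis and a gene of 1 exon, shows such a change on 1 transcript. Its DMSO Pre peak lay in the 3′ UTR at chr16:15888136-15888485 (score 6.23, rank 1987), and its DMSO Diff peak in the CDS at chr16:15887361-15888010 (score 43.4, rank 74), with a gap between them. The stretch from the DMSO Pre peak is chr16:15888247-15888276 and that from the DMSO Diff peak chr16:15887857-15887916, both on the plus strand.
Cebpd, DMSO Pre: cagcttgggcactGGACtgcgagagaagct
Cebpd, DMSO Diff: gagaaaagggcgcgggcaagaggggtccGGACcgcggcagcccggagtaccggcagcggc

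Of the genes in this group, the 10 with the best ranks at both stages were Uso1, Purb, Tra2a, Luc7l2, Cwc22, Ncor1, Tax1bp1, Ipo7, Lrp1b and Ttc3. In Uso1 the DMSO Pre peak (rank 144) lay near the end of the CDS and the DMSO Diff peak (rank 19) further upstream in the CDS, and the midpoint difference, DMSO Diff minus DMSO Pre, was -2554 bases. In Purb the best DMSO Pre peak (rank 203) lay in the 3′ UTR and the DMSO Diff peak (rank 38) 4088 bases further downstream. Ncor1, a nuclear receptor corepressor, had its best DMSO Pre peak (rank 477) in the 3′ UTR and its DMSO Diff peak (rank 574) in the CDS, with a midpoint difference of -6068 bases. Its other DMSO Pre peak (rank 2449) lay in the CDS as well.

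Of these 10, Tra2a, Luc7l2 and Cwc22 encode splicing proteins. In Tra2a the midpoint of the DMSO Diff peak (rank 297) was at -874 bases from that of the DMSO Pre peak (rank 88) on a short transcript that holds both. In Lrp1b the DMSO Diff peak (rank 667) lay flush between the pair of DMSO Pre peaks (best rank 232), so that the places differ by a boundary only.

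**Figure D5:**
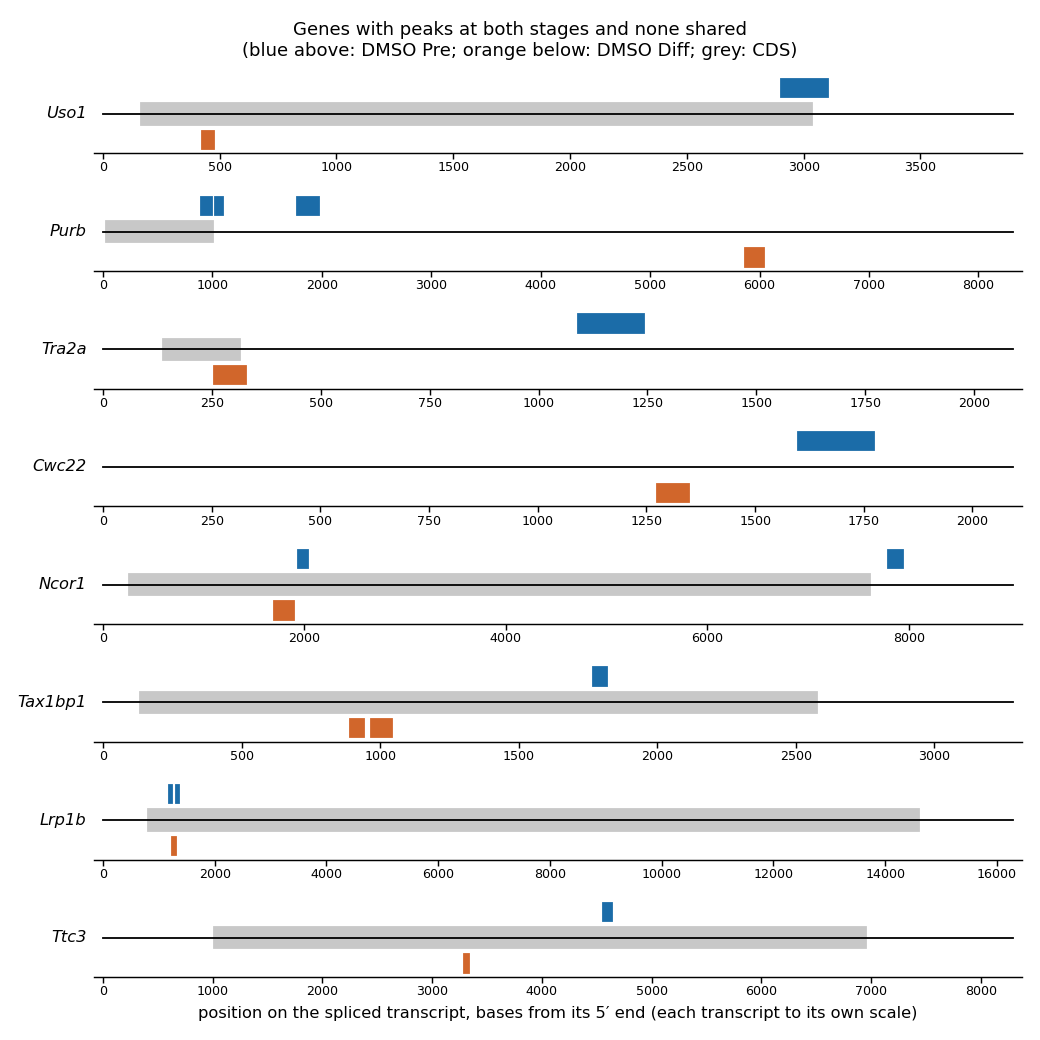
Peaks of DMSO Pre (blue, above) and DMSO Diff (orange, below) along the spliced transcript (x axis, bases from its 5′ end, each to its own scale) for those of the 10 genes whose best peaks lay on 1 annotated transcript, with the coding sequence in grey; peaks not wholly on the drawn transcript are left out. The midpoint difference, DMSO Diff minus DMSO Pre, was -2554 bases in Uso1 and -62 in Lrp1b.

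Counted over single peaks, 579 Pre-only peaks had a DMSO Diff peak elsewhere on the same transcript, at a median gap of 625 bases, and 93 of them (16.1%) within 100 bases. For the Diff-only peaks these were 678, 575 bases and 126 (18.6%). A peak that touched its neighbour with no base between was seen in 17 and 27 cases. Most of these peaks therefore lay over 100 bases from the nearest peak of the other stage.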

How the data were processed

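RNA of 3T3-L1 cells was immunoprecipitated with an m6A antibody and sequenced beside its input, 1 library of each per stage. Per the labels and the study's methods, the authors trimmed reads with Trim Galore (0.6.5), aligned them to mm10 with HISAT2 (2.1.0), dropped duplicates with Picard (2.23.5) and poorly mapped reads with SAMtools (1.9), ran exomePeak2 on default settings and annotated them with ChIPseeker (1.26). These filters can lower the reads of strongly expressed short RNAs and of genes with close copies. The deposited value is a score whose column is headed as a fold change. Taken as a negative base-2 logarithm, its lowest value per list gives an adjusted p of 0.0549 in DMSO Pre and 0.0520 in DMSO Diff, near the usual threshold of 0.05, so it was used for ranking only. Depth is not given.

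Peaks were placed on GENCODE vM21 exons (97.6% of DMSO Pre and 96.5% of DMSO Diff peaks) in Python 3.11.15 with NumPy 2.4.6. Where several transcripts could hold a peak, coding transcripts were taken before others, and longer ones before shorter. How well a transcript fitted the span was not scored. The overlap routine was tested on simulated peaks. Region was taken at the peak midpoint. Transcript sequences were those of GENCODE vM21.

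Named were the 10 highest Pre-only and Diff-only peaks, the 10 shared pairs and the 10 genes without a shared peak with the best ranks at both stages, and list members with a peak. Other genes were named after their values had been seen. The members and lists were chosen with earlier results of these data known. With 1 library pair per stage no test was run. Alternatives were the overlap rule, the authors' symbols and regions, the peaks above the median score, an adjusted p below 0.001 and spans of up to 1000 bases. A few list members are counted in their lists but are not reported here by name.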

Additional observations from a re-analysis of the deposited data

How the results depend on the processing

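Of 69 alternative values for the main counts and shares, 41 stayed within 1.5 times the main count or within the main interval. The shared peaks numbered 718 in each list with an overlap of 50% of both spans, 465 (DMSO Pre) and 458 (DMSO Diff) among peaks above the median score of each list and 271 and 266 at an adjusted p below 0.001. The genes at both stages numbered 454 above the median score, 77 of them with none shared. With a gap of up to 100 bases counted as the same place, 111 genes at both stages had none shared, against 143 in the report. By the authors' regions the Pre-only peaks were 8.35% 5′ UTR, 50.1% CDS and 41.6% 3′ UTR and the Diff-only peaks 9.55%, 48.6% and 41.9%, while the shared DMSO Pre peaks were 7.36% 5′ UTR and the shared DMSO Diff peaks 46.9% CDS. Above the median score the Pre-only peaks were 4.11%, 51.3% and 44.6%, and the Diff-only peaks 4.65% 5′ UTR and 41.1% 3′ UTR. GGAC lay in 55.1% and 53.1% of the 100-base windows of shared DMSO Pre and DMSO Diff peaks, and in 58.4% of the shared DMSO Pre peaks above the median score. With DMSO MCE shortened to the length of DMSO Pre it held 20.3% of the Pre-only and 25.9% of the Diff-only peaks. Above the median score it held 32.6% of the Pre-only peaks, and rhein Diff held 22.8% of the Pre-only and 32.0% of the Diff-only peaks.

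The difference between Pre-only and Diff-only members changed sign above the median score for lipid storage (-2), receptors (-1), TGF-beta signalling (-1), chromatin modifiers (2) and zinc finger proteins (-1), and by the authors' symbols for receptors (-3). The cause was not tested. For cytoplasmic ribosomal protein genes it was -13 by the authors' symbols, -15 above the median score and -21 in the report. The 5 lists written after the data were seen were given the same alternatives, and none of their differences changed sign. No paired analysis was possible because the result comes from no test. Depth, RNA levels and the spread between cultures are unknown, and a peak near the threshold can be absent from a list for want of reads.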
